A study of Mus musculus with 6 samples.

Results

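Corticosteroid signalling in the adult hippocampus was described here through 10 genes. They comprise the corticosteroid receptors, an enzyme that supplies their ligand, 5 target genes and 2 metallothioneins. The genes were taken from the deposited count table by gene symbol, and all 10 of 10 were present among its 20620 rows. The study compared hippocampal RNA of adult male mice on a C57BL/6J background, 1 library per mouse and 3 mice per group. Control mice had the genotype Braf Q241R Neo/+ and were 31 to 32 weeks old, and n-Braf mice had the genotype Braf Q241R/+ with CaMKII-Cre and were 32 to 34 weeks old. Mice of both groups therefore carried 1 Braf allele with the Q241R substitution, with the Neo cassette in the controls and with the Cre transgene in n-Braf. CaMKII-Cre acts in mature excitatory neurons, while the libraries held RNA of all cells of the tissue. Transgene, cassette and mutant protein cannot be told apart as sources of a group difference.

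Glucocorticoids are adrenal steroid hormones whose blood level follows the time of day and rises with stress. They cross the blood-brain barrier and bind 2 receptors, the glucocorticoid receptor encoded by Nr3c1 and the mineralocorticoid receptor encoded by Nr3c2, and the hippocampus is rich in both. The bound receptors enter the nucleus and attach to glucocorticoid response elements, which raises transcription of genes such as Fkbp5, Sgk1 and Tsc22d3. Metallothioneins are small cysteine-rich proteins that bind zinc and copper. Zinc acts on their genes through the factor MTF1 and metal response elements, and glucocorticoids induce them too.

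The sequences below show matches to response elements around annotated transcription starts of 3 of the 10 genes. The RefSeq promoter table (GRCm38.p6, 250 bases before to 50 after each start) held 15 windows for 8 of the 10 genes. Each window was searched on both strands for the palindromic glucocorticoid response element, AGAACA and TGTTCT with any 3 bases between them, and for the metal response element core TGCGCNC or TGCACNC. The palindrome was in 1 of the 15 windows, at a start of Sgk1, and in 3 of all 32851 windows (0.00913%). A metal core was in 5 of the 15 windows and in 25.7% of all windows. The Mt1 and Mt2 windows held 3 and 4 cores, and 1.97% of all windows held 3 or more. The sequences are given 5′ to 3′ on the plus strand, with the glucocorticoid element in capitals in Sgk1 and the metal cores in capitals in Mt1 and Mt2.

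Sgk1, chr10:21993640-21993939: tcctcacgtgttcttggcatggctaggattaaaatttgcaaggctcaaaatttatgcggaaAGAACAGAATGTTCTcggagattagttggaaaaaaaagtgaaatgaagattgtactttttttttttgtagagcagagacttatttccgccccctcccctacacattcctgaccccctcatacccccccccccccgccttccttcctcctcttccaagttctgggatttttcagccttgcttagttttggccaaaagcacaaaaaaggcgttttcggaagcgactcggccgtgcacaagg
Mt1, chr8:94178839-94179138: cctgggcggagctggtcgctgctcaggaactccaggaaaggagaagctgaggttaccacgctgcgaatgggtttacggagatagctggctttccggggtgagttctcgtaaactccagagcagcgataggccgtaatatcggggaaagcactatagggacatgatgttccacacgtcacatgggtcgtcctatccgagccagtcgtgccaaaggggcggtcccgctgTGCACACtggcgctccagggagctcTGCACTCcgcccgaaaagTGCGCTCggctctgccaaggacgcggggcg
Mt2, chr8:94172368-94172667: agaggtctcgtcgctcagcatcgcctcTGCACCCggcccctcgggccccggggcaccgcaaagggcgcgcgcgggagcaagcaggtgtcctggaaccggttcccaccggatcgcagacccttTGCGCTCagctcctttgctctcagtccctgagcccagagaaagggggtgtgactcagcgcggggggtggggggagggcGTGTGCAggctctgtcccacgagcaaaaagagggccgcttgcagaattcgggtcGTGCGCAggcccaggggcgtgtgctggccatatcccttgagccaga

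The Sgk1 element AGAACAGAATGTTCT lay 189 to 175 bases before that start, at 21993701 to 21993715 on chromosome 10. In Mt2 the cores on the minus strand read GTGTGCA and GTGCGCA on the strand shown. A match is a run of letters in these windows, and binding was not measured. A window without a match says nothing of elements elsewhere in the gene.

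Libraries held between 25227112 and 31832245 assigned counts. Braf, the targeted gene, had 116, 123 and 116 CPM in the control mice, and n-Braf mice 1 to 3 had 185, 184 and 205 CPM (log2 fold change 0.69, SE 0.068; adjusted p = 0.0533). All 10 markers of hippocampal excitatory neurons were detected in every library, among them Camk2a at 2120 to 2904 CPM. Markers of the choroid plexus, the epithelium that secretes cerebrospinal fluid, stood apart in controls 1 and 2. Their summed level over 13 tested markers was 3553 CPM in control 1, 1996 CPM in control 2, 147 CPM in control 3 and 99.9 to 116 CPM in n-Braf, and 0 of the 13 were at 0 in any library. Ttr alone, the thyroid hormone carrier of that epithelium, ranged from 1.06 to 2036 CPM. Summed levels in controls and n-Braf were 30.0 to 59.1 and 17.8 to 22.2 CPM for 8 ependymal markers, 145 to 183 and 120 to 169 CPM for 10 microglial markers, and 311 to 423 and 367 to 461 CPM for 13 neocortical markers. All 13 choroid plexus and 8 ependymal markers were lower in n-Braf by point estimate, with median log2 fold changes of -3.23 and -1.31. Of all 20604 genes tested, 10502 were lower. Every n-Braf library lay below every control in 5 of the 13 and 7 of the 8, against 5.44% of all genes. For 14 myelin markers the sums were 1849 to 2373 and 1559 to 2125 CPM. All 14 were lower in n-Braf by point estimate, the median being -0.36 on the log2 scale. In 2 of the 14, Trf and Fa2h, every n-Braf library lay below every control, against the same 5.44% of all genes. Among the 13 neocortical markers, 12 point estimates were above 0 and 1 below it (median 0.17), and the groups overlapped in each. In the choroid plexus, ependymal, myelin and neocortical lists 0 markers had an adjusted p under 0.05. In such bulk RNA, fewer cells of a type and less RNA per cell cannot be told apart.

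Levels are given as CPM, the read count relative to the TMM-scaled size of its library, and group values are mean ± SD over 3 libraries. Differences are log2 fold changes of n-Braf against control, with their standard error (SE), from edgeR's quasi-likelihood test. The threshold was a Benjamini-Hochberg adjusted p of 0.05 over 20604 genes tested.

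None of the 10 genes passed that threshold. The test called 0 of the 10, and 0% of all genes tested, and limma-voom did the same. DESeq2 called 0 of the 10 and 0.425% of the 18571 genes it gave an adjusted p, and edgeR's likelihood ratio test 0 of the 10 and 0.345% of all genes. At an unadjusted p under 0.05 there was 1 of the 10, Mt2, which was higher in n-Braf, against 6.82% of all genes in either direction and 3.09% higher. The libraries of the groups did not overlap in 1 of the 10, Pdk4, with n-Braf below, against 11.5% of all genes (6.09% with n-Braf above and 5.44% below). The point estimates were above 0 in 6 genes and below 0 in 4. Their median was 0.063 on the log2 scale, beside -0.0042 over all genes and 0.019 over the 9381 genes with at least 10 CPM. The spread was uneven within n-Braf. The library of n-Braf mouse 1 had the lowest level of its group in 7 of the 10 genes, among them all 5 target genes and both metallothioneins.

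**Figure D1:**
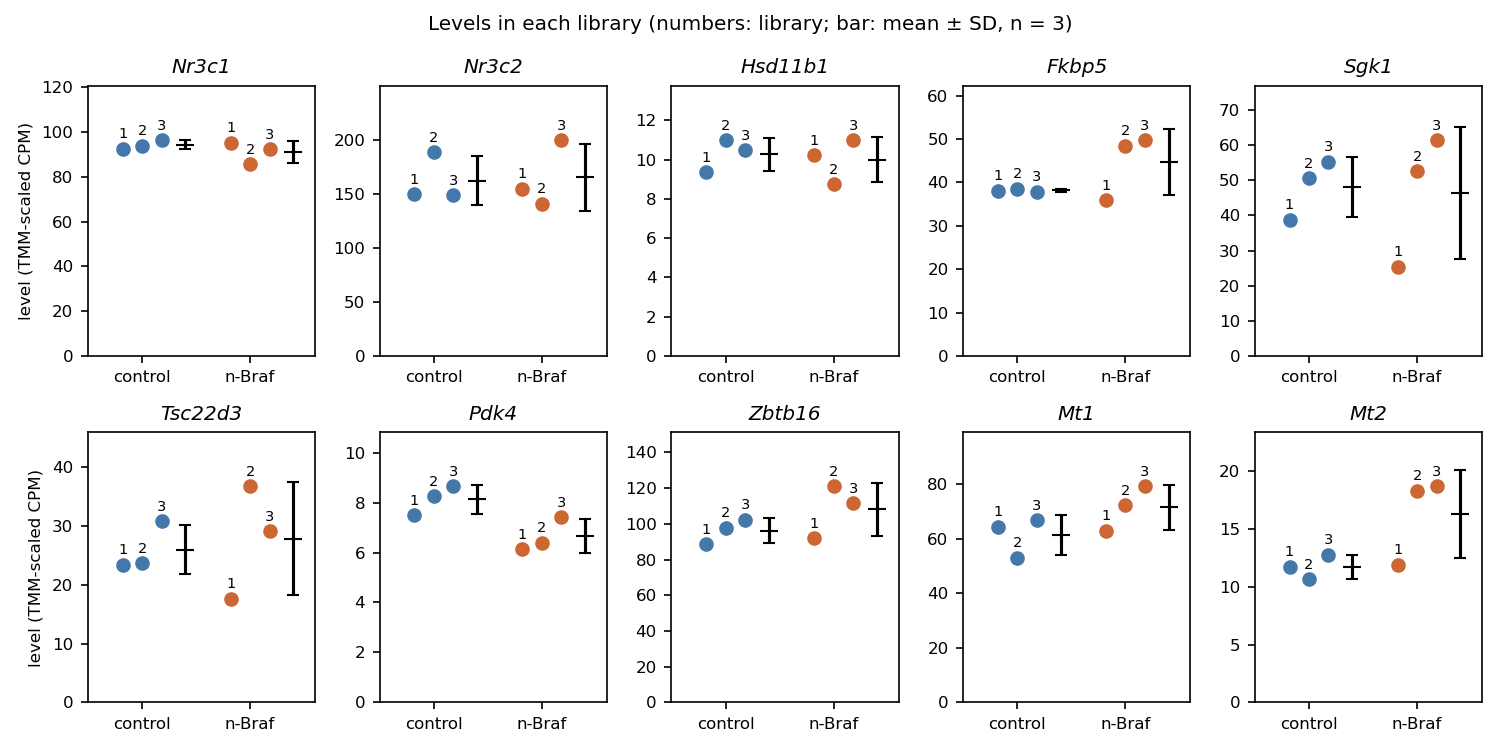
TMM-scaled CPM (vertical axis, from 0) of the 10 genes in each library, with the library number above each point, controls in blue and n-Braf in orange, and the group mean ± SD as a black bar (n = 3). In Sgk1, Tsc22d3, Fkbp5 and Mt2, n-Braf 1 sits below n-Braf 2 and n-Braf 3, for example at 25.4 CPM against 52.6 and 61.5 CPM in Sgk1.

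**Figure D2:**
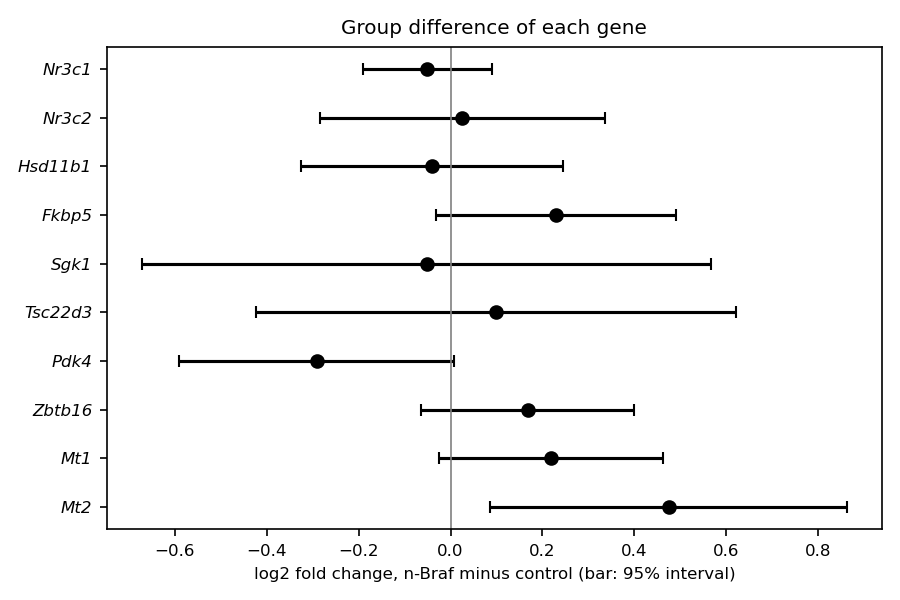
Log2 fold change of n-Braf against control for the 10 genes (horizontal axis), with the 95% interval as a bar. The interval spans 0 in all genes but Mt2 (0.087 to 0.86), and it is widest in Sgk1 (-0.67 to 0.57).

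The glucocorticoid receptor gene Nr3c1 had nearly the same level in every mouse. The control libraries 1 to 3 had 92.5, 93.9 and 96.4 CPM, and n-Braf 1 to 3 had 95.2, 85.7 and 92.3 CPM. The groups overlapped, and the highest library was 1.04 times the lowest in the controls and 1.11 times in n-Braf. Its log2 fold change was -0.050 (SE 0.062), with a 95% interval of -0.19 to 0.091. In fold terms the interval ran from 0.876 to 1.06.

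The mineralocorticoid receptor gene Nr3c2 (chromosome 8, 76899442 to 77245012, plus strand) encodes the receptor with the higher affinity for corticosterone. The control libraries 1 to 3 had 149, 189 and 149 CPM, and n-Braf 1 to 3 had 155, 141 and 199.9 CPM. A single library stood high in each group, control 2 and n-Braf 3, and the groups overlapped. Nr3c2 had a log2 fold change of 0.025 (SE 0.14; 95% interval -0.28 to 0.34). The direction of so small a value turned when control 1, control 3 or n-Braf 3 was left out. Per kilobase of exon, the ratio of Nr3c2 to Nr3c1 was 1.92, 2.38 and 1.83 in the controls and 1.93, 1.95 and 2.57 in n-Braf. The 2 receptor genes therefore kept the same order in all 6 libraries, with Nr3c2 higher.

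Hsd11b1 (chromosome 1, 193221634 to 193264075, minus strand) encodes the reductase that regenerates active glucocorticoid inside cells. It was at 9.36, 11.0 and 10.5 CPM in the controls and at 10.2, 8.75 and 11.0 CPM in n-Braf. The groups overlapped, with a log2 fold change of -0.041 (SE 0.13; 95% interval -0.33 to 0.24).

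Among the 5 target genes, Fkbp5 (chromosome 17, 28399094 to 28517527, minus strand) encodes a co-chaperone that lowers the receptor's affinity for hormone and is itself induced by it. Its controls were almost equal, at 38.0, 38.5 and 37.8 CPM. The n-Braf libraries were at 36.0, 48.4 and 49.8 CPM, so mouse 1 lay below every control and mice 2 and 3 above every control. The SD of log2 CPM was 0.013 in the controls and 0.26 in n-Braf, larger than in 1.51% and 93.5% of the 9381 genes with at least 10 CPM. Counting error alone, from the mean control count, was 0.045 on that scale. The 3 controls were therefore closer together than counting error would make them, and their SD understates the spread to be expected between mice. The log2 fold change was 0.23 (SE 0.12; 95% interval -0.032 to 0.49; adjusted p = 0.783). Without n-Braf 1 it was 0.36 (SE 0.071), with an adjusted p of 0.911. Leaving out n-Braf 2 gave 0.17, and leaving out n-Braf 3 gave 0.14.

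Sgk1 (chromosome 10, 21882184 to 21999903, plus strand), whose promoter element is shown above, encodes a kinase that regulates ion channels and transporters. It was at 38.7, 50.5 and 55.3 CPM in the controls and at 25.4, 52.6 and 61.5 CPM in n-Braf. The lowest and the highest of the 6 libraries were both n-Braf, with 811 counts in n-Braf 1 and 1805 in n-Braf 3. The highest n-Braf library was 2.42 times the lowest, against 1.43 times in the controls. The SD of log2 CPM in n-Braf was larger than in 99.6% of genes with at least 10 CPM, and that in the controls larger than in 94.8%. The log2 fold change was -0.052 (SE 0.27; adjusted p = 0.991), and its 95% interval of -0.67 to 0.57 was the widest of the 10 genes. Without n-Braf 1 the direction turned, to 0.24 (SE 0.15; adjusted p = 0.937).

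Tsc22d3 (chromosome X, 140539528 to 140600659, minus strand) encodes GILZ, a leucine zipper protein that carries part of the anti-inflammatory action of glucocorticoids. It was at 23.4, 23.7 and 30.7 CPM in the controls and at 17.6, 36.7 and 29.0 CPM in n-Braf. As with Sgk1, n-Braf 1 was the lowest of all 6 libraries, while the highest was n-Braf 2. The n-Braf libraries spanned a factor of 2.08 and the controls one of 1.31. Tsc22d3 had a log2 fold change of 0.10 (SE 0.23; 95% interval -0.42 to 0.62; adjusted p = 0.977). The value was 0.34 when n-Braf 1 was left out (adjusted p = 0.937), and when n-Braf 2 was left out it turned to -0.15 (adjusted p = 0.979).

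Zbtb16 (chromosome 9, 48654297 to 48836222, minus strand) encodes the zinc finger repressor PLZF. It was at 88.6, 97.7 and 102 CPM in the controls and at 91.8, 121 and 112 CPM in n-Braf, so n-Braf 2 and 3 lay above every control and n-Braf 1 within their range. For Zbtb16 the estimate was 0.17 on the log2 scale (SE 0.10; adjusted p = 0.828).

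Pdk4 (chromosome 6, 5483351 to 5496309, minus strand) encodes a kinase that inhibits pyruvate dehydrogenase and so slows the use of glucose carbon. It went the other way from Fkbp5 and Zbtb16 in its point estimate. The controls were at 7.50, 8.26 and 8.64 CPM and the n-Braf libraries at 6.13, 6.39 and 7.42 CPM, with every n-Braf library below every control. The gap between the nearest libraries, n-Braf 3 and control 1, was small beside the spread within each group. The log2 fold change was -0.29 (SE 0.13; 95% interval -0.59 to 0.0069; adjusted p = 0.741). Counts were low, between 196 and 222 per library.

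The metallothionein genes Mt2 (chromosome 8, 94172664 to 94173568, plus strand) and Mt1 (chromosome 8, 94179082 to 94180327, plus strand) are neighbours, and in brain both are most abundant in astrocytes. Mt2 was at 11.7, 10.7 and 12.8 CPM in the controls and at 11.9, 18.3 and 18.7 CPM in n-Braf. Here too n-Braf 1 lay within the control range, while n-Braf 2 and 3 were above every control. Mt2 had the largest point estimate of the 10 genes, a log2 fold change of 0.47 (SE 0.17; 95% interval 0.087 to 0.86). Its unadjusted p was 0.0217 in edgeR's quasi-likelihood test, and its adjusted p was 0.672. Without n-Braf 1 the log2 fold change was 0.65 (adjusted p = 0.783), and it was 0.38 without n-Braf 2 and 0.36 without n-Braf 3. In the authors' deposited table Mt2 had a log2 fold change of 0.47 and an adjusted p of 0.684.

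Mt1 followed with a smaller difference. It was at 64.4, 53.2 and 66.9 CPM in the controls and at 63.1, 72.4 and 79.3 CPM in n-Braf. Control 2 was lowest and n-Braf 2 and 3 were highest, as for Mt2. The log2 fold change was 0.22 (SE 0.11; 95% interval -0.025 to 0.46; adjusted p = 0.779). With the counts of Mt1 and Mt2 summed to 1 feature it was 0.26 (SE 0.11), with an adjusted p of 0.730.

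Within a library, Mt1 exceeded Mt2 by 5.50, 4.99 and 5.24 times in CPM in the controls and by 5.30, 3.96 and 4.25 times in n-Braf. The ratio in n-Braf 1 thus lay within the control range, and in n-Braf 2 and 3 it lay below it. Of 1292 stretches of 50 bases in the annotated Mt1 transcripts and 554 in those of Mt2, 0 occurred in transcripts of any other gene. The deposited expected counts were whole numbers in all 6 libraries for Mt1 and in none for Mt2, so part of the Mt2 value was apportioned by the estimate. Mt3, another member of the family, was at 61.0 to 67.2 CPM in the controls and at 55.4 to 66.0 CPM in n-Braf, with a log2 fold change of -0.078. Of 10 astrocyte markers, 7 had point estimates above 0 and 3 below it, with a median log2 fold change of 0.038. Sox9 was at -0.21, Gja1 at -0.055, Gfap at 0.013, Aldoc at 0.11 and Slc1a2 at 0.16. In Aldoc and Slc1a2, 2 of the 10, every n-Braf library lay above every control, against 6.09% of all genes. The summed level of the 10 was 4406 to 4696 CPM in the controls and 4959 to 5043 CPM in n-Braf, with 0 of the 10 passing the threshold and 0 at 0. Most of that sum was the glutamate transporter Slc1a2, and Aqp4, the astrocyte water channel, was at 121 to 135 and 134 to 137 CPM. The part of astrocyte content in the metallothionein values was not tested.

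Compared per kilobase of exon, the levels in the controls ran from Mt1 (49.4 CPM per kilobase) through Nr3c2 (25.1), Mt2 (19.9), Zbtb16 (18.2), Nr3c1 (12.3), Sgk1 (9.82), Tsc22d3 (5.97) and Fkbp5 (4.03) to Hsd11b1 (2.42) and Pdk4 (2.32). The length used was the union of all annotated exons of a gene, and the order rests on it. In Mt1 that union was 1246 bases, the whole span of the gene, and in Mt2 588 bases. Among neighbours in that order, Mt2 with Zbtb16 and Hsd11b1 with Pdk4 overlapped between control libraries. Over all 6 libraries Nr3c2 with Mt2, Nr3c1 with Sgk1, Sgk1 with Tsc22d3 and Tsc22d3 with Fkbp5 overlapped as well.

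The low levels in n-Braf 1 were noticed in the values above, and the comparison of this library with the others of its group was chosen after seeing them. It has 1 mouse on one side and is a description with no test. Among the 10 genes, the median difference in log2 CPM of n-Braf 1 from the mean of n-Braf 2 and 3 was -0.30. It was largest in Sgk1 and Tsc22d3: n-Braf 2 exceeded n-Braf 1 by 2.07 times in Sgk1, 2.08 times in Tsc22d3, 1.35 times in Fkbp5 and 1.32 times in Zbtb16. For Mt2 the factor was 1.54 and for Mt1 1.15. In Pdk4 it was 1.04. The receptor genes and Hsd11b1 had n-Braf 2 below n-Braf 1, at 0.900 times in Nr3c1, 0.912 times in Nr3c2 and 0.855 times in Hsd11b1, while n-Braf 3 was at 0.970, 1.29 and 1.07 times n-Braf 1.

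A separate list of 42 other genes that glucocorticoids induce in brain or other tissues had the same library lowest in most of its members. In it n-Braf 1 was lowest of its group in 32 of 42 genes, n-Braf 2 in 6 and n-Braf 3 in 4, and the median difference of n-Braf 1 from the others was -0.36. Over the 9381 genes with at least 10 CPM, n-Braf 1 was lowest in 36.2% and the median difference was -0.013. The receptors' chaperones and cofactors had n-Braf 1 lowest in 10 of 17 (58.8%) too, with a median difference of -0.053. For metal handling genes it was 5 of 26, with a median of 0.10. For genes of corticosteroid synthesis, transport and release, with other steroid receptors, it was 7 of 15, with a median of 0.098. Relatives of the target genes had n-Braf 1 lowest in 5 of 15, with a median of -0.0041. All these lists were chosen with earlier results of these data known. Low genes among the 42 included Mfsd2a, a lipid transporter of the blood-brain barrier, at 4.38 CPM in n-Braf 1 against 9.50 and 7.97 CPM. Plin4, a lipid droplet protein, was at 7.14 CPM against 12.5 and 14.5 CPM. Nfkbia, the inhibitor of NF-kappaB, was at 9.70 CPM against 16.3 and 14.5 CPM, and Klf9, a transcription factor, at 108 CPM against 131 and 150.5 CPM. A pair of genes on the list went the other way most clearly. Dusp1, a MAP kinase phosphatase, was at 19.9 CPM in n-Braf 1 against 12.8 and 8.89 CPM, and Zfp36, an RNA decay factor, at 3.16 CPM against 2.23 and 1.91 CPM. These 6 genes were chosen after their values were seen.

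**Figure D3:**
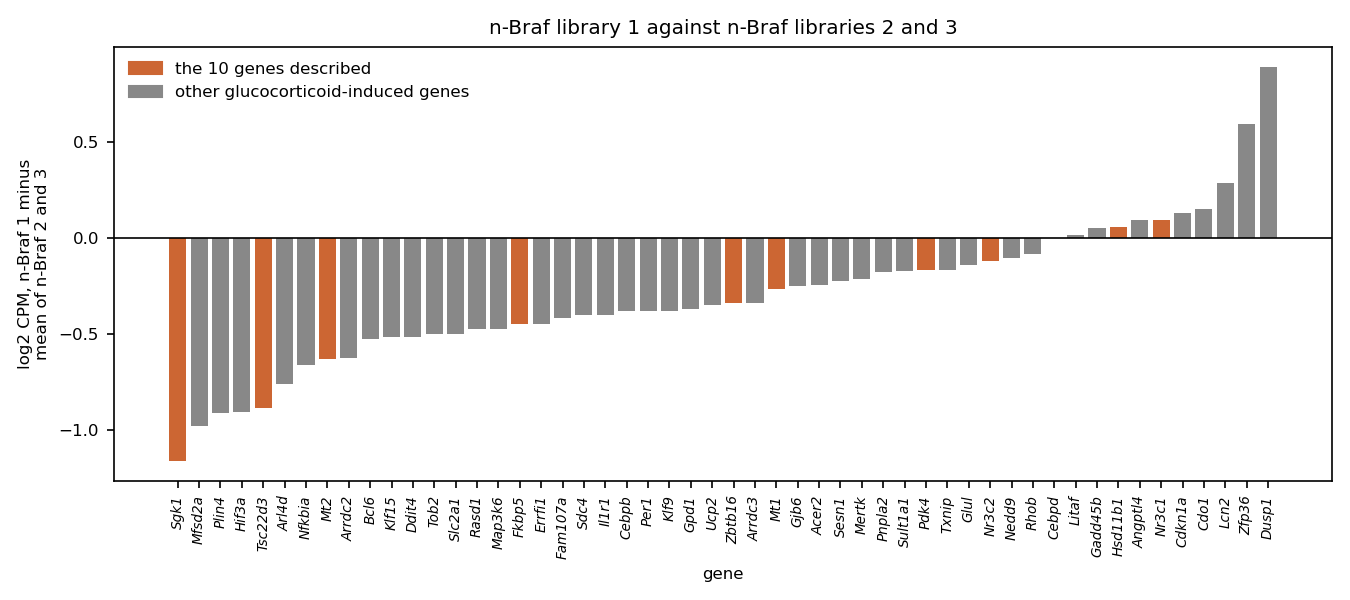
Difference in log2 CPM between n-Braf 1 and the mean of n-Braf 2 and 3 (vertical axis) for the 10 genes (orange) and the 42 other glucocorticoid-induced genes (grey), sorted by size. Sgk1 is the lowest bar, and the median of the other glucocorticoid-induced genes is -0.36.

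In the controls the lowest library was also unevenly spread over the list. Control 2 was lowest of its group in 22 of the 42 genes (52.4%, against 28.5% of genes with at least 10 CPM), with a median difference of -0.087 from the other controls, control 1 in 15 and control 3 in 5. Control 1 was lowest in 6 of the 10 genes described here, with a median difference of -0.17, and it was lowest in 46.3% of all genes with at least 10 CPM. The depth of n-Braf 1 was 31832245 counts, beside 31678125 and 30152839 in n-Braf 2 and 3. Its summed endothelial and mural markers were at 337 CPM against 312 and 304 CPM in n-Braf 2 and 3, its summed choroid plexus markers at 99.9 CPM against 116 and 105 CPM, and its summed myelin markers at 1559 CPM against 1571 and 2125 CPM. Of the neocortical markers, 9 of 13 were highest of the group in n-Braf 1, with a median difference of 0.37, although their sum was 420.3 CPM against 461 and 367 CPM. None of the 12 endothelial, 13 choroid plexus, 14 myelin or 13 neocortical markers was at 0 in any library. The mouse was 33 weeks old, between the other n-Braf mice. The part of cell content in these levels was not tested.

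Between the groups, the 42 other glucocorticoid-induced genes had 26 point estimates above 0 and 16 below it. Their median on the log2 scale was 0.057, beside -0.0042 over all genes and 0.019 over genes with at least 10 CPM. In either direction 0 of 42 passed. Those with the smallest p were Hif3a, a hypoxia-inducible factor subunit (log2 fold change 0.79, SE 0.27), Rasd1, a RAS-like GTPase first found as a dexamethasone-induced gene (0.57, SE 0.21), Ucp2, a mitochondrial carrier (-0.54, SE 0.23), and Txnip, a thioredoxin inhibitor (-0.28, SE 0.12). Hif3a was at 3.92, 3.18 and 4.05 CPM in the controls and at 4.01, 8.84 and 6.47 CPM in n-Braf, with n-Braf 1 again among the controls. Rasd1 was at 12.6, 11.9 and 13.4 CPM in the controls and at 14.5, 15.6 and 26.1 CPM in n-Braf, where n-Braf 3 stood high and every library lay above the controls. Of the 42 genes, 1 had every n-Braf library above every control and 1 below, against 6.09% and 5.44% of all genes. Ucp2 was highest in controls 1 and 2, at 16.8 and 11.7 CPM, the libraries with high choroid plexus markers, and at 7.17 to 9.72 CPM elsewhere. The part of choroid plexus content in that difference was not tested.

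The receptors' chaperones and cofactors had 10 of 17 point estimates above 0 and 7 below it, a median of 0.042 on the log2 scale and 0 passing. The smallest p-values belonged to the cofactors Nrip1 (log2 fold change 0.14, SE 0.08), Ncoa2 (0.10, SE 0.06) and Crebbp (0.09, SE 0.07). Genes of corticosteroid synthesis, inactivation, transport and release, with other steroid receptors, had 7 of 15 higher and 8 lower, a median of -0.0076 and 0 passing. Crhbp, which encodes the binding protein of corticotropin-releasing hormone, was at 9.32, 7.89 and 9.27 CPM in the controls and at 11.5, 11.7 and 12.0 CPM in n-Braf. Its groups did not overlap, with n-Braf above, as in 1 of the 15 genes, against 6.09% of all genes. Its log2 fold change was 0.41 (SE 0.11, adjusted p = 0.543). Next on that list were Pgr, the progesterone receptor (0.24, SE 0.11), Abcb1b, a drug and steroid exporter (0.34, SE 0.17), and Cyp11a1, which starts steroid synthesis (-0.43, SE 0.29).

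Genes of metal handling and oxidative defence had 9 of 26 higher and 17 lower, with a median of -0.053 and 0 passing. Slc31a1, the copper importer, had 22.4 CPM in control 1 and 17.1 CPM in control 2, against 8.65 to 9.94 CPM in the other 4 libraries, so it stood high where the choroid plexus markers did. The part of that tissue in its log2 fold change of -0.81 (SE 0.25) was not tested. Slc39a10, a zinc importer, was at 89.7, 98.7 and 105 CPM in the controls and at 144, 112 and 112 CPM in n-Braf (log2 fold change 0.32, SE 0.11; adjusted p = 0.632). Ccs, the copper chaperone of superoxide dismutase, was at -0.39 (SE 0.14) and Nqo1, a quinone reductase, at -0.93 (SE 0.35). Relatives of the target genes had 10 of 15 higher and 5 lower, with a median of 0.031 and 0 passing, and Sgk3 (-0.19, SE 0.12), Fkbp8 (0.07, SE 0.06), Fkbp1a (0.09, SE 0.08) and Pdk1 (-0.07, SE 0.08) had the smallest p.

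The genes with the profile over the 6 libraries most like a given gene were found among 9214 genes of at least 10 CPM outside all lists, by the root mean square difference of log2 CPM deviations. For Fkbp5 they were Kcng2, a potassium channel subunit (0.049), Lin54 (0.066) and Rin1, a RAS effector (0.067). For Mt2 they were Ier5, an immediate early gene (0.089), Aldh1a1, a retinaldehyde dehydrogenase (0.11), and Bhlhe40, a circadian repressor (0.13).

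Leaving out 1 library moved Sgk1 (-0.31 to 0.24) and Tsc22d3 (-0.15 to 0.34) over the widest ranges of the 10 genes. The median log2 fold change of the 10 genes was 0.26 without n-Braf 1, -0.00089 without control 1 and 7.1e-05 without n-Braf 3, beside 0.063 with all libraries. As covariates, the choroid plexus markers gave -0.010, the myelin markers 0.16 and the neocortex markers 0.12. Fkbp5, Zbtb16, Mt1 and Mt2 stayed above 0 and Nr3c1 and Pdk4 below 0 under each of the 6 omissions, and none of the 10 genes passed the threshold in any of them. With controls 1 and 2 left out together, control 3 alone was set against n-Braf and is assumed to vary like it. In that fit Mt2 was at 0.35, Fkbp5 at 0.24, Pdk4 at -0.38 and Tsc22d3 at -0.15.

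**Figure D4:**
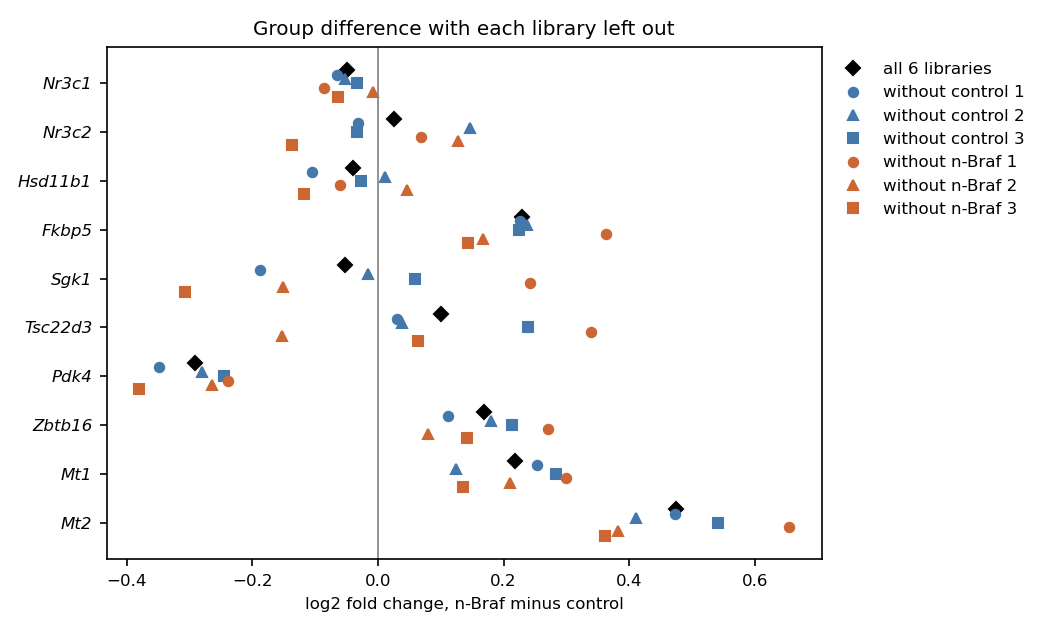
Log2 fold change of n-Braf against control for each gene (horizontal axis) with all 6 libraries (black diamonds) and with each control (blue) or n-Braf (orange) library left out. Leaving out n-Braf 1 (orange circles) moves Sgk1 from -0.052 to 0.24 and Mt2 from 0.47 to 0.65. Leaving out n-Braf 2 (orange triangles) moves them to -0.15 and 0.38, and n-Braf 3 (orange squares) to -0.31 and 0.36.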

How the data were processed

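Hippocampal RNA was sequenced from 6 mice, with 10.0 ng of total RNA per library and a stranded SMART-Seq kit, per the labels' protocols. Per the submitters' processing notes, bcl2fastq 2.20, fastp 0.20.1, STAR, RSEM and edgeR 3.36.0 were used on mm10, while annotation and strand setting are not stated in what was used here. Expected counts make up the deposited table; they are estimates in which reads that fit several genes are shared. It also gives the authors' log2 fold change and log2 CPM with p-value and adjusted p-value of each gene.

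Expected counts were rounded, and filterByExpr (minimum count 10) kept 20604 genes. With edgeR 4.0.16 in R 4.3.3 the quasi-likelihood model was fitted (legacy settings, TMM, group only). The same fit was run on counts simulated from the levels and dispersions of these data. DESeq2 1.42.0 and limma 3.58.1 (voom) were alternatives, with other scalings, filters, covariates, a replicate block and each library left out. Log2 CPM had a prior count of 2. Intervals are 95% from the moderated degrees of freedom. Exon lengths and coordinates are from GENCODE M21 (GRCm38), and promoters from RefSeq (GRCm38.p6). The 10 genes, lists and rule were chosen with earlier results of these data known. The rule named all 10 genes, Braf, up to 4 genes of each wider list with the smallest p, marker levels and the 3 genes most like Fkbp5 and Mt2. A gene that the rule named is not reported here. Counting error on the log2 scale, from the mean count per group, was 0.020 to 0.10 over the 10 genes. It was close to the SD between mice for Pdk4 (0.098 against 0.10 in controls) and Nr3c1 (0.029 against 0.030 in controls), and above it for Fkbp5 in controls (0.045 against 0.013). Replicates are separate mice by their numbers in the labels.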

Additional observations from a re-analysis of the deposited data

How the results depend on the processing

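The count of the 10 genes past the threshold was 0 under all 22 alternatives run for it. Over all genes the quasi-likelihood test called 0. In its place, DESeq2 called 79 and the likelihood ratio test 71. The quasi-likelihood test called 3 with the neocortex markers as covariate, 1 without legacy settings (chosen after seeing the data) and 2 at an adjusted p of 0.1. With 1 library left out it called between 0 and 82, the 82 without control 3. The median log2 fold change of the 10 genes ran from -0.00089 to 0.26 with 1 library left out, and the 0.26 came without n-Braf 1. The direction held under every alternative run for Nr3c1, Fkbp5, Pdk4, Zbtb16, Mt1 and Mt2, and the lowest adjusted p among them was 0.335, for Mt2. With 1 library left out, log2 fold changes ran from -0.14 to 0.15 for Nr3c2, -0.12 to 0.046 for Hsd11b1, -0.31 to 0.24 for Sgk1 and -0.15 to 0.34 for Tsc22d3. Nr3c2 turned to -0.30 with age as a covariate, -0.031 without control 1, -0.033 without control 3 and -0.14 without n-Braf 3. Hsd11b1 turned to 0.027 with the myelin and 0.0021 with the neocortex markers as covariate, 0.011 without control 2 and 0.046 without n-Braf 2. Sgk1 turned to 0.16 and 0.036 with the same covariates, 0.058 without control 3 and 0.24 without n-Braf 1. Tsc22d3 turned to -0.095 with the choroid plexus markers as covariate, -0.15 without n-Braf 2 and -0.15 against control 3 alone. The cause was not tested.

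Replicate numbers are shared between the groups, but same-numbered libraries did not deviate together (correlation across genes 0.10, -0.046 and -0.014), and not every library correlated best with its own number. With the replicate block 0 genes were called and the median of the 10 genes was 0.035.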
